A study of Mus musculus with 9 samples.

Results

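Kdm2a, Kdm2b, Kdm3a, Kdm3b, Jmjd1c, Phf2, Phf8, Tyw5, Mina and Jmjd6 encode proteins with a Jumonji C (JmjC) domain that lie outside the KDM4, KDM5 and KDM6 demethylase subfamilies. They were taken by gene symbol from the expression tables, and each of the 10 symbols matched 1 of 43154 listed genes. The JmjC domain holds iron and uses oxygen and 2-oxoglutarate to hydroxylate its substrate, and on a methylated lysine this hydroxylation removes the methyl group. The KDM2 proteins act on H3K36, the KDM3 proteins and the PHF proteins mainly on H3K9, and PHF8 also on H4K20, whereas TYW5 hydroxylates a modified base of transfer RNA, MINA a ribosomal protein and JMJD6 splicing proteins. In mice KDM3A has been reported to promote hypertrophic growth of the heart under pressure overload.

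RNA was sequenced from 9 whole hearts of C57BL/6 mice. In 2 of the 3 groups the mice carried calcineurin A, the catalytic subunit of a calcium-activated phosphatase, as a transgene under the α-myosin heavy chain promoter, which is active in cardiomyocytes. Transgenic mice were given JIB-04, a small molecule that inhibits Jumonji demethylases (2 hearts), or vehicle (3 hearts), and wild type mice were given vehicle (4 hearts). The JIB-04 dose was 50 mg/kg, given 3 times a week with a start at 4 weeks of age. By their labels, JIB-04 heart 1, transgenic vehicle heart 1 and wild type hearts 1 and 2 came from day 125, and the other 5 hearts from day 158, although the series text names only day 158. The labels carry a separate mouse number for each heart, so the hearts were treated as separate animals. Transcript levels do not measure enzyme activity, and no wild type hearts given JIB-04 were analysed here.

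The transgene was visible in every transgenic heart. Ppp3ca, the gene of calcineurin Aα, stood at 1540 and 1430 FPKM in JIB-04 hearts and at 1760, 1710 and 199 FPKM in transgenic vehicle hearts, against 22.9 to 24.8 FPKM in wild type hearts. Transgenic vehicle heart 3 was therefore the lowest transgenic heart for Ppp3ca, and it also had the lowest transgenic level of Rcan1, a calcineurin target, at 72.8 FPKM. Transgenic vehicle heart 3 and JIB-04 heart 2 stood apart in a second way, with mt-Atp6, mt-Atp8 and mt-Co3 high there and listed at 0 in the other 7 hearts. The read number per heart is unknown, and its size relative to wild type heart 1 was estimated from the steps between low values. It was 1.51 and 1.34 in JIB-04 hearts, 1.25, 1.46 and 1.27 in transgenic vehicle hearts, and 1.0, 1.15, 1.17 and 1.22 in wild type hearts. Every transgenic heart thus stood above every wild type heart in estimated depth, and the part of this in the group differences was not tested. Summed cardiomyocyte markers lay at 15500 to 17300 FPKM in JIB-04 hearts, 15400 to 18100 FPKM in transgenic vehicle hearts and 19900 to 23700 FPKM in wild type hearts. Summed fibroblast markers lay at 544 to 583 FPKM in JIB-04 hearts, 484 to 641 FPKM in transgenic vehicle hearts and 249 to 313 FPKM in wild type hearts. In transgenic vehicle heart 3, which had the highest sum, Dcn alone stood at 567 FPKM. Col1a1 (9.67 FPKM) and Lum (21.1 FPKM) were there below every wild type heart, while Pdgfra and Tcf21 were above. Of the 6 fibroblast markers, 3 were called as higher in transgenic vehicle hearts against wild type hearts. For endothelial markers the sums were 110 to 114 FPKM in JIB-04 hearts, 105 to 135 FPKM in transgenic vehicle hearts and 184 to 195 FPKM in wild type hearts. None of these markers was at 0 in any heart. In whole hearts, fewer cells of a type and less RNA per cell cannot be told apart, and the part of these shifts in the results on single genes was not tested.

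All 10 genes were expressed in every heart. FPKM, a fragment number divided by transcript length and by library size, corrects for length, so levels can be set side by side between genes. Jmjd6 was the most abundant in each group, and Phf8 the least abundant, with a lowest single value of 3.28 FPKM in wild type heart 4. In wild type hearts Jmjd6 exceeded 76.5% of the 13487 genes that reached 1 FPKM in at least 2 hearts, and Phf8 exceeded 33.0% of them. In wild type hearts the order was Jmjd6, Kdm2a, Phf2, Mina, Jmjd1c, Kdm3b, Kdm3a, Tyw5, Kdm2b and Phf8. Kdm2a, Phf2, Mina and Jmjd1c each overlapped the next in that chain, as did Kdm3a, Tyw5, Kdm2b and Phf8, while Jmjd6 and Kdm3b were each apart from their neighbours. In both transgenic groups Tyw5 stood above Kdm3b and Kdm3a in mean level, although the ranges of these neighbours overlapped, and Kdm2b and Phf8 were apart from the rest and from each other. Variation over all 9 hearts was widest for Tyw5 (coefficient of variation 35.7%) and Kdm3a (24.4%) and narrowest for Jmjd1c (6.46%).

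**Figure D1:**
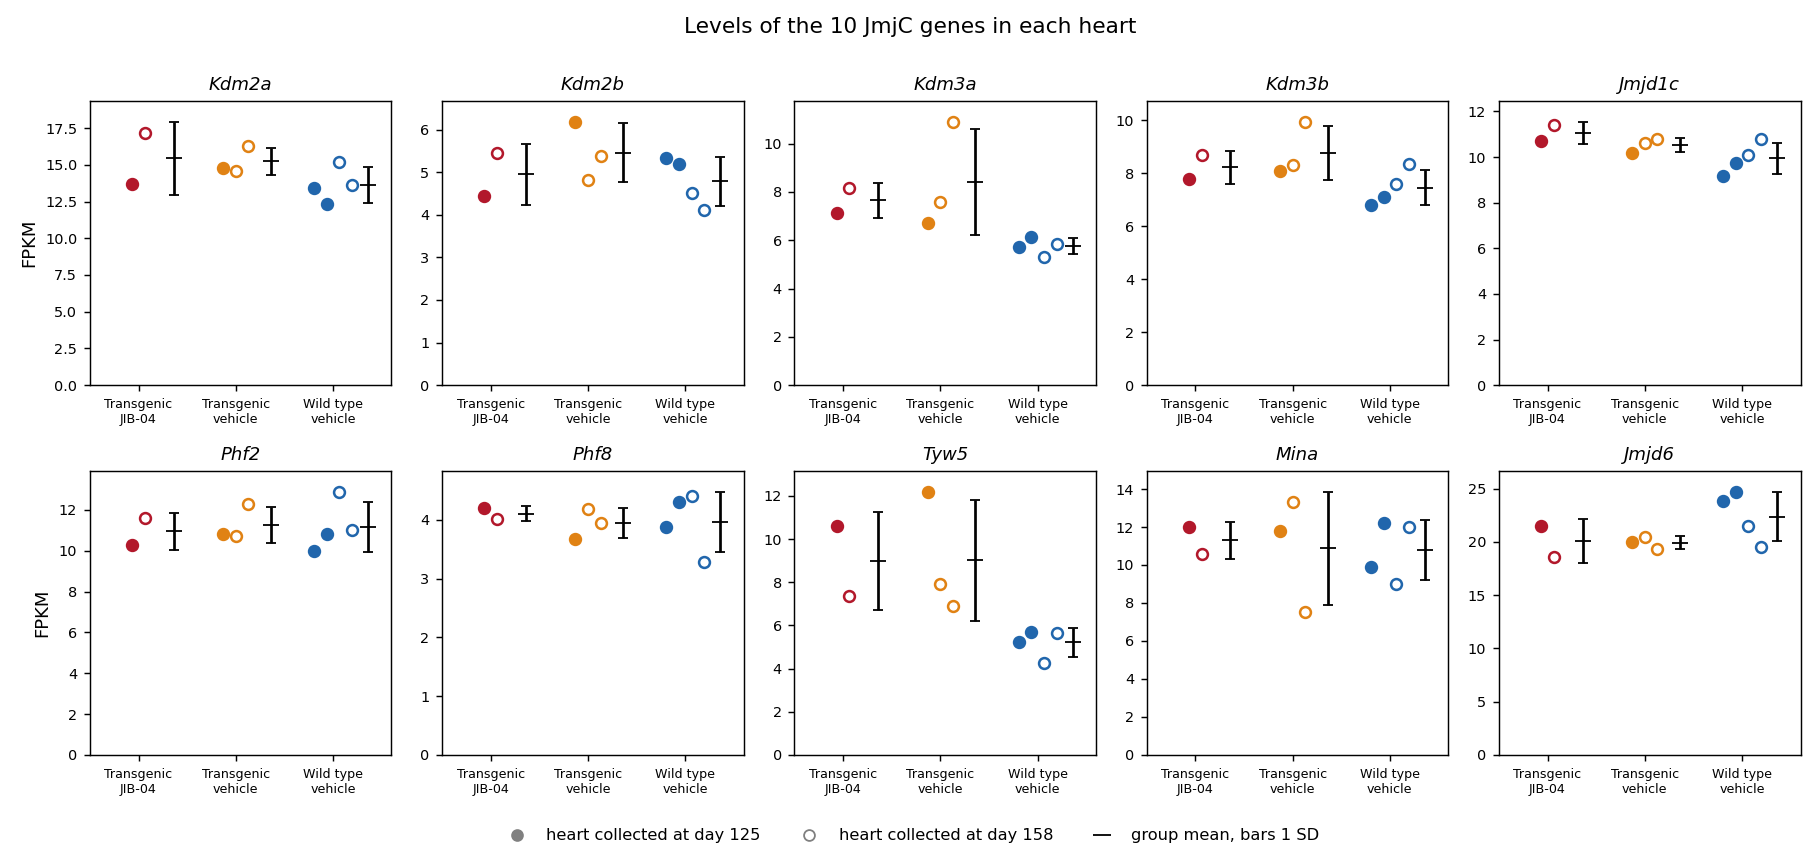
Level of each of the 10 JmjC genes (FPKM, linear axis from 0) in transgenic JIB-04, transgenic vehicle and wild type vehicle hearts. Points are single hearts, filled for day 125 and open for day 158, and bars are the group mean with 1 SD (n = 2, 3 and 4). All transgenic hearts lie above all wild type hearts for Kdm3a and Tyw5, while the groups overlap for the other 8 genes.

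Among the 10 genes, Tyw5 and Kdm3a rose in transgenic vehicle hearts against wild type hearts, and none fell. Tyw5 averaged 1.65-fold and Kdm3a 1.35-fold their wild type level on the fitted scale. Differences are of log2(FPKM + 1) with the day of collection in the model, and a gene was called at a limma p under 0.05 after Benjamini-Hochberg adjustment over all 13487 genes. In the same comparison 36% of all genes were called, 20.3% as higher and 15.7% as lower, so 2 of 10 called as higher is near the background. The median difference of the 10 genes was 0.09, against 0.05 for all genes, and 7 of the 10 were above 0. Hearts of the groups did not overlap for the same 2 genes, which lay above wild type, as 23.4% of all genes did.

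The KDM2 proteins bind unmethylated CpG DNA through a CXXC zinc finger and remove methyl groups from H3K36. Kdm2a (chr19:4314419-4398285 on GRCm38), whose protein sits at CpG islands, had 13.7 and 17.2 FPKM in JIB-04 hearts, 14.8, 14.6 and 16.3 FPKM in transgenic vehicle hearts, and 13.4, 12.3, 15.2 and 13.6 FPKM in wild type hearts. JIB-04 heart 2 was the highest and wild type heart 2 the lowest, and the groups overlapped. The difference of transgenic vehicle from wild type was 0.12 (95% interval -0.07 to 0.32). Kdm2b (chr5:122870668-123015080), which brings a variant Polycomb complex to CpG islands, had 4.44 and 5.46 FPKM in JIB-04 hearts, 6.18, 4.81 and 5.38 FPKM in transgenic vehicle hearts, and 5.34, 5.19, 4.5 and 4.11 FPKM in wild type hearts. Transgenic vehicle heart 1 was highest, and the overlap again spanned all groups, with a difference of 0.18 (95% interval -0.07 to 0.44). Kdm2b shares 627 exon bases with Rnf34 on the opposite strand, and the libraries did not keep strand, so reads there cannot be assigned to either gene. Rnf34 was not called (difference 0.14, limma adjusted p = 0.23). Kdm2b also shares 199 exon bases with the antisense gene A930024E05Rik, which had at most 0.663 FPKM in any heart, and 124 with Gm44574, which was not matched by name in the files.

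Kdm3a (chr6:71588974-71632905) encodes an H3K9 demethylase that hypoxia induces. It had 7.13 and 8.16 FPKM in JIB-04 hearts, 6.73, 7.59 and 10.9 FPKM in transgenic vehicle hearts, and 5.73, 6.15, 5.31 and 5.85 FPKM in wild type hearts. Every transgenic heart was above every wild type heart, and transgenic vehicle heart 3, the heart with the lowest transgenic Ppp3ca level, was the highest. Means were 7.64 ± 0.728 FPKM in JIB-04 hearts, 8.42 ± 2.22 FPKM in transgenic vehicle hearts and 5.76 ± 0.348 FPKM in wild type hearts (SD, n = 2, 3 and 4). The difference of transgenic vehicle from wild type was 0.43 (SE 0.14, limma adjusted p = 0.043), close to the threshold. Without transgenic vehicle heart 3 it was 0.27 (limma adjusted p = 0.055). It also missed the threshold without JIB-04 heart 1 or heart 2 (limma adjusted p = 0.065 each) and without wild type heart 1, 3 or 4 (0.069, 0.12 and 0.11).

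Its close relatives were not called. Kdm3b (chr18:34777008-34839370), another H3K9 demethylase, had 7.77 and 8.67 FPKM in JIB-04 hearts, 8.07, 8.31 and 9.94 FPKM in transgenic vehicle hearts, and 6.79, 7.12, 7.58 and 8.34 FPKM in wild type hearts. Transgenic vehicle heart 3 was the highest here too, wild type heart 4 reached into the transgenic range, and the difference of 0.18 was not called (95% interval -0.01 to 0.37, limma adjusted p = 0.12). Jmjd1c (chr10:67096125-67256326), a KDM3 family protein whose demethylase activity is debated, had 10.7 and 11.4 FPKM in JIB-04 hearts, 10.2, 10.6 and 10.8 FPKM in transgenic vehicle hearts, and 9.17, 9.74, 10.1 and 10.8 FPKM in wild type hearts. It varied least of the 10 genes, with a difference of 0.06 (95% interval -0.09 to 0.21). Gm26538, a long noncoding RNA that shares 3468 exon bases with Kdm3b on the opposite strand, was listed at 0 in every heart. Whether the Kdm3a difference exceeds those of Kdm3b and Jmjd1c was not tested. Reep3, which starts 820 bases from Jmjd1c on the opposite strand and shares no exon with it, fell in transgenic vehicle hearts (difference -0.36, limma adjusted p = 0.0056).

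PHF2 and PHF8 pair a PHD finger, which reads methylated H3K4, with the JmjC domain. Phf2 (chr13:48801750-48870885), which works with the DNA-binding protein ARID5B, had 10.3 and 11.6 FPKM in JIB-04 hearts, 10.8, 10.7 and 12.3 FPKM in transgenic vehicle hearts, and 10, 10.8, 12.9 and 11 FPKM in wild type hearts. Phf8 (chrX:151520672-151633859) had 4.2 and 4.01 FPKM in JIB-04 hearts, 3.68, 4.19 and 3.94 FPKM in transgenic vehicle hearts, and 3.88, 4.3, 4.41 and 3.28 FPKM in wild type hearts. For both genes a wild type heart was the highest, and the Phf8 range of wild type hearts enclosed all transgenic hearts. The differences of transgenic vehicle from wild type were -0.01 for Phf2 (95% interval -0.2 to 0.18) and 0 for Phf8 (95% interval -0.24 to 0.24). Phf2os1, an antisense gene that starts 7 bases from Phf2 and shares 8 exon bases with it, had 0.725 to 2 FPKM and was not called (0.17, limma adjusted p = 0.46).

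Tyw5 (chr1:57388237-57407101) encodes the hydroxylase in the synthesis of hydroxywybutosine, a bulky base beside the anticodon of phenylalanine transfer RNA. It had 10.6 and 7.38 FPKM in JIB-04 hearts, 12.2, 7.94 and 6.89 FPKM in transgenic vehicle hearts, and 5.25, 5.69, 4.27 and 5.65 FPKM in wild type hearts. The 2 highest values were the transgenic hearts of day 125, and no transgenic heart reached down into the wild type range. Means were 9.01 ± 2.31 FPKM in JIB-04 hearts, 9.02 ± 2.82 FPKM in transgenic vehicle hearts and 5.22 ± 0.659 FPKM in wild type hearts (SD, n = 2, 3 and 4). The difference of transgenic vehicle from wild type was 0.72 (SE 0.14, limma adjusted p = 0.0047). It held when any single heart was left out, and was 0.5 in day 158 hearts alone (limma adjusted p = 0.13).

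Tyw5 shares 718 of its 2808 exon bases with Maip1, listed in the files as 9430016H08Rik, which runs on the opposite strand. That neighbour had 6.51 and 5.86 FPKM in JIB-04 hearts, 5.95, 6.39 and 4.88 FPKM in transgenic vehicle hearts, and 6.72, 6.72, 5.99 and 6.82 FPKM in wild type hearts. It was not called and its difference had the opposite sign (-0.16, limma adjusted p = 0.24). How reads in the shared bases were divided was not tested.

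Mina (chr16:59471775-59492461, Riox2 in the annotation) encodes a ribosomal oxygenase of the nucleolus. It had 12 and 10.6 FPKM in JIB-04 hearts, 11.8, 13.3 and 7.55 FPKM in transgenic vehicle hearts, and 9.89, 12.2, 9.01 and 12 FPKM in wild type hearts. Transgenic vehicle heart 3 was the lowest of all and heart 2 of the same group the highest, so the difference of 0.01 had a wide interval (-0.4 to 0.43). Crybg3, which shares 1185 exon bases with Mina on the opposite strand, was highest in the heart where Mina was lowest, at 15.9 FPKM against 10 to 11.1 FPKM in the other 8 hearts. Jmjd6 (chr11:116837432-116843449), whose product hydroxylates lysines of splicing proteins, had 21.5 and 18.6 FPKM in JIB-04 hearts, 20, 20.5 and 19.3 FPKM in transgenic vehicle hearts, and 23.8, 24.7, 21.5 and 19.5 FPKM in wild type hearts. Wild type hearts of day 125 were the highest, the groups overlapped, and the difference was -0.13 (95% interval -0.3 to 0.05). Mettl23, which starts 171 bases from Jmjd6 on the opposite strand and shares 172 exon bases with it, fell in transgenic vehicle hearts (-0.38, limma adjusted p = 0.011). Gm27401, which shares 173 exon bases with Jmjd6, was listed at 0 in every heart.

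The size of the differences, the calls and the sign of some single genes depended on scaling. No scaling between hearts is recorded for the deposited values. The median of the 10 genes stayed above 0 under each scaling. With every heart brought to the same total, the median difference of all genes in transgenic vehicle against wild type hearts moved by 0.19, to 0.24, and that of the 10 genes to 0.3. All 10 genes were then above 0, Jmjd6 included, and Kdm2a (0.33), Kdm2b (0.37) and Kdm3b (0.38) passed the threshold beside Kdm3a (0.63) and Tyw5 (0.92). Over all genes 4503 were then called as higher and 1004 as lower, against 2739 and 2123 in the fit as reported. The share of higher genes among those called was then 81.8%. With median-of-ratios scaling, 6 of the 10 genes were above 0, with a median of 0.04. Tyw5 (0.68) was then the only one of the 10 called, and 48.3% of the called genes were higher. With totals taken without mitochondrial and the 20 highest genes, 9 of the 10 were above 0, with a median of 0.12. Kdm3a was called in 8 of 20 alternative analyses and Tyw5 in 19 of 20.

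**Figure D2:**
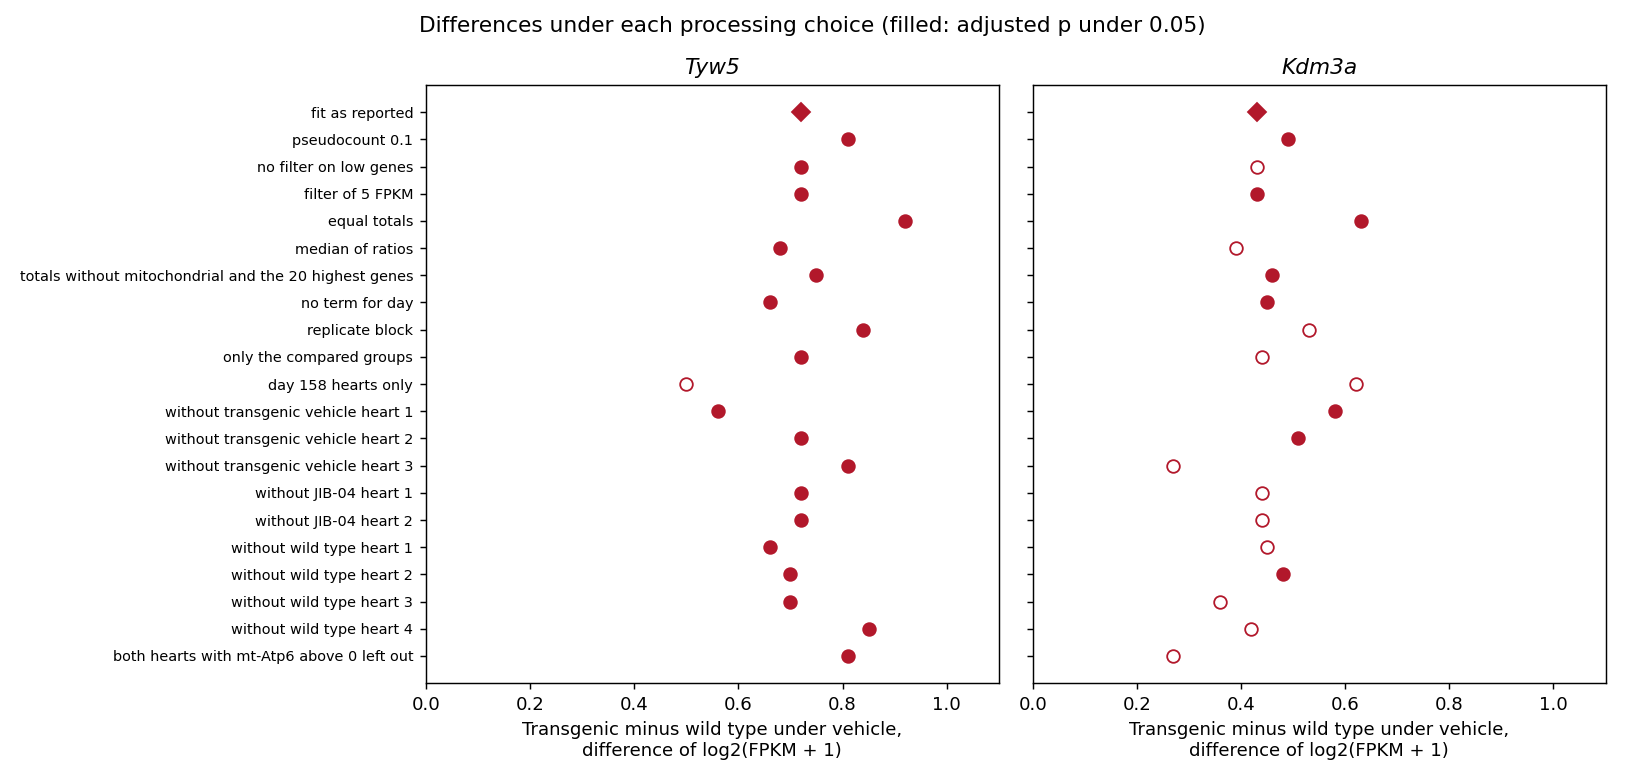
Difference of log2(FPKM + 1) between transgenic and wild type hearts under vehicle for Tyw5 and Kdm3a, as reported (diamond) and under each alternative (circles). Filled symbols passed an adjusted p of 0.05. Tyw5 stays between 0.5 and 0.92 and fails to pass only in day 158 hearts alone, while Kdm3a ranges from 0.27 to 0.63 and passes in 8 of 20 alternatives.

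No difference between JIB-04 and vehicle was detected in transgenic hearts for any of the 10 transcripts. None of the 10 was called by limma, 0 of 10 had an unadjusted p under 0.05, and the JIB-04 and vehicle hearts overlapped for every one of them, whereas 12.4% of all genes did not overlap. Over all genes 0.00741% were called, which is 1 gene, and 444 had an unadjusted p under 0.05 (3.29%). The called gene, Gm15776, named after its values were seen, had 6.66 and 11.2 FPKM in JIB-04 hearts and was listed at 0 in the others. Some of these differences changed sign with 1 heart left out. For Kdm2b the value of -0.14 became 0.09 without JIB-04 heart 1 and -0.4 without JIB-04 heart 2, and for Kdm3a the value of -0.08 became 0.08 without transgenic vehicle heart 3. The intervals allow changes that the design could not detect. For Kdm3a the interval ran from -0.46 to 0.3, for Tyw5 from -0.42 to 0.33 and for Mina from -0.44 to 0.55, while for Jmjd1c it ran from -0.1 to 0.26.

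Tyw5 was also higher in JIB-04 hearts than in wild type hearts. Its difference was 0.67 (SE 0.15, limma adjusted p = 0.012), and it was the only one of the 10 genes called. Over all genes 32.3% were called in this comparison, 17.4% as higher and 14.8% as lower. Without JIB-04 heart 1 the Tyw5 difference was 0.61 (limma adjusted p = 0.11), and without JIB-04 heart 2 it was 0.74 (limma adjusted p = 0.072). Kdm3a differed by 0.35 (95% interval -0.01 to 0.72, limma adjusted p = 0.12). Both JIB-04 hearts nonetheless lay above all wild type hearts for Kdm3a and Tyw5, as they did for 28.4% of all genes. Without transgenic vehicle heart 3, which enters through the shared estimate of the spread and the day term, the Kdm3a difference was called (0.35, limma adjusted p = 0.02). The 2 transgenic groups were each compared with the same wild type hearts, so these values and those for transgenic vehicle hearts are not independent.

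**Figure D3:**
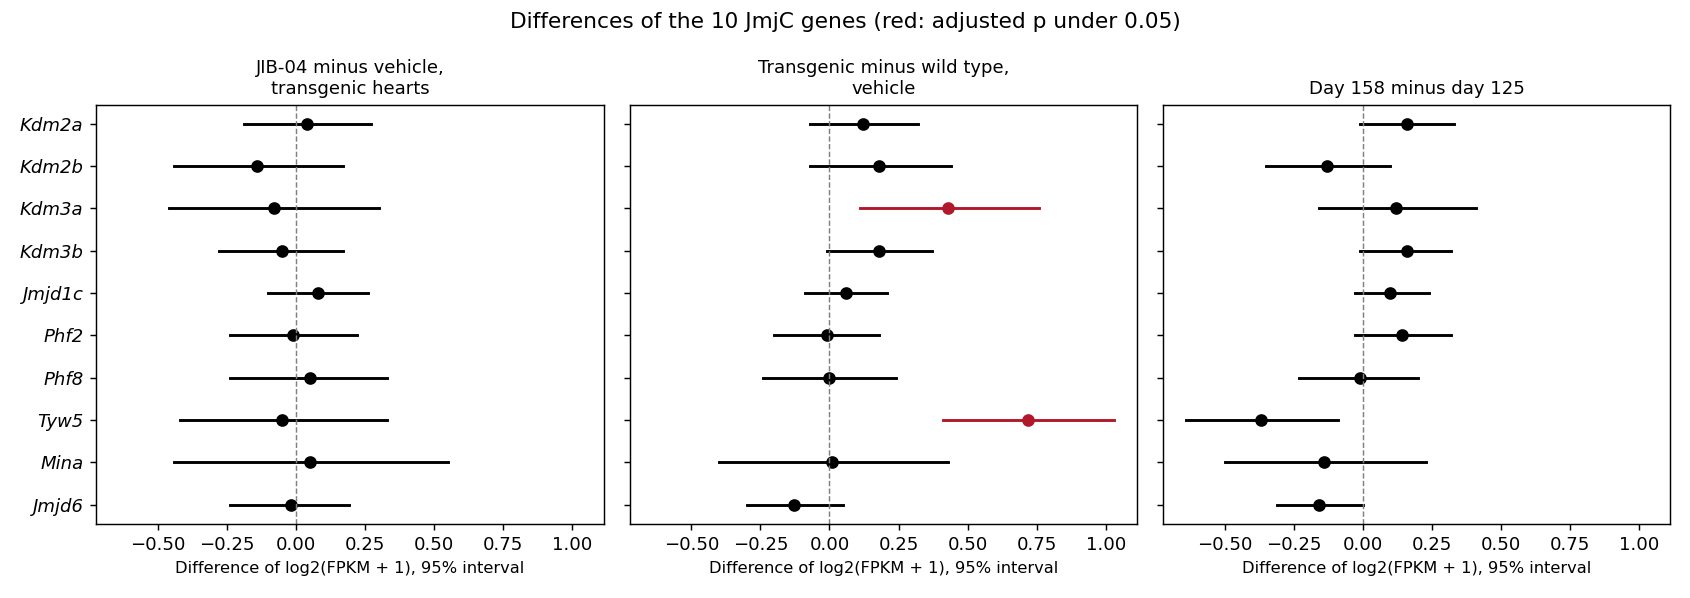
Differences of log2(FPKM + 1) with 95% intervals for the 10 JmjC genes: JIB-04 minus vehicle in transgenic hearts, transgenic minus wild type under vehicle, and day 158 minus day 125. Red marks an adjusted p under 0.05, reached by Kdm3a (0.43) and Tyw5 (0.72) in the middle panel and by no gene in the outer panels.

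None of the 10 genes was called between the days of collection, against 0.378% of all genes. Across groups the log2 difference of day 158 from day 125 for Tyw5 was -0.37 (95% interval -0.64 to -0.09), with an unadjusted limma p of 0.015 and an adjusted p of 0.16. Fitted within each day, the difference of transgenic vehicle from wild type for Tyw5 was 0.5 (SE 0.15, limma adjusted p = 0.074) at day 158 and 1.03 (SE 0.19, limma adjusted p = 0.032) at day 125. In these fits 16.7% of all genes were called at day 158 and 8.33% at day 125. The Tyw5 effect differed between the days by -0.53 (SE 0.24, limma adjusted p = 1). For Kdm3a the effect was 0.62 (SE 0.18) at day 158 and 0.16 (SE 0.22) at day 125, which differed by 0.47 (SE 0.28, limma adjusted p = 1). Day 125 holds a single transgenic vehicle heart and a single JIB-04 heart, which limits each of these values.

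The other genes of wybutosine synthesis were set beside Tyw5. Of 5 such genes, 3 rose in transgenic vehicle hearts and none fell, against 20.3% of all genes called as higher. Their median difference was 0.34, against 0.05 for all genes, and the counts were the same without transgenic vehicle heart 3. Trmt5, which methylates the guanosine that becomes wybutosine, had 22 and 25.6 FPKM in JIB-04 hearts, 30.3, 27.8 and 37.1 FPKM in transgenic vehicle hearts, and 22.7, 21.7, 21.9 and 18.2 FPKM in wild type hearts. Transgenic vehicle hearts stood above all others for Trmt5 (difference from wild type 0.56, limma adjusted p = 0.0095), and JIB-04 minus transgenic vehicle was -0.39 (limma adjusted p = 0.99). Tyw1, which builds the third ring of the base, had 4.91 and 4.19 FPKM in JIB-04 hearts, 4.88, 4.27 and 4.44 FPKM in transgenic vehicle hearts, and 3.6, 3.21, 3.18 and 3.66 FPKM in wild type hearts. Both transgenic groups lay above wild type (transgenic vehicle difference 0.34, limma adjusted p = 0.017). Over all genes, JIB-04 hearts lay above all wild type hearts for 28.4% and transgenic vehicle hearts for 23.4%. Trmt12, which adds the side chain, had 2.6 and 2.43 FPKM in JIB-04 hearts, 2.52, 2.05 and 1.78 FPKM in transgenic vehicle hearts, and 1.35, 1.68, 1.44 and 1.49 FPKM in wild type hearts. Its difference was 0.34 (limma adjusted p = 0.035), with an adjusted p of 0.052 under median-of-ratios scaling. Tyw3 and Lcmt2 were not called (-0.15 and 0.14).

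**Figure D4:**
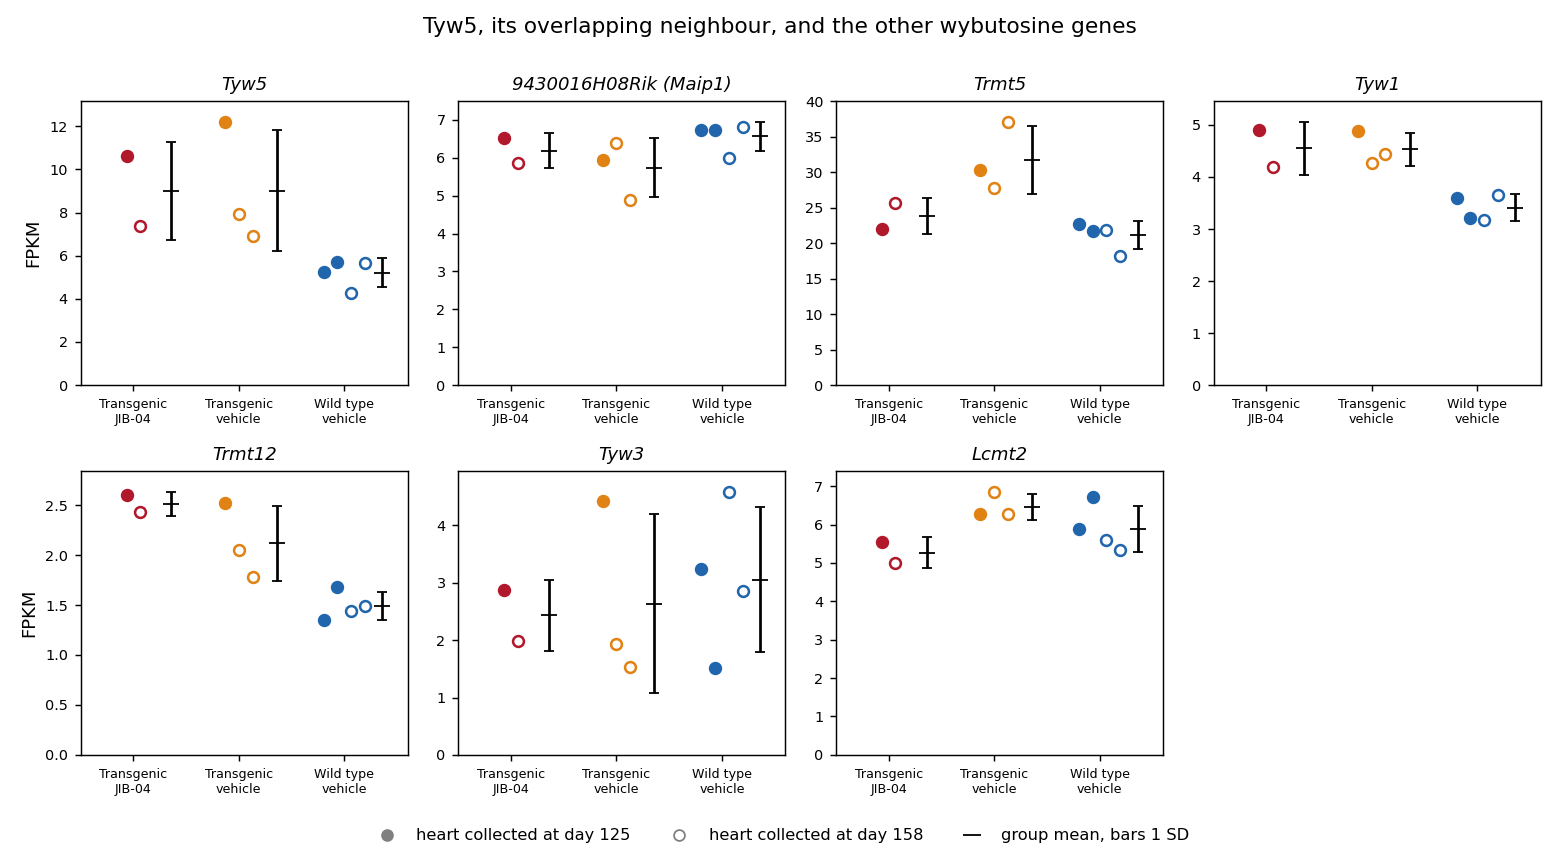
Level (FPKM, linear axis from 0) of Tyw5, of its overlapping neighbour 9430016H08Rik (Maip1) and of the 5 other wybutosine genes in transgenic JIB-04, transgenic vehicle and wild type vehicle hearts. Points are single hearts, filled for day 125 and open for day 158, and bars are the mean with 1 SD (n = 2, 3 and 4). Tyw5, Tyw1 and Trmt12 are above wild type in all transgenic hearts, Trmt5 is highest in transgenic vehicle hearts, and the neighbour is not higher in transgenic hearts.

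Most of the listed genes that supply or antagonise 2-oxoglutarate, the cofactor of JmjC hydroxylases, fell in transgenic vehicle hearts against wild type hearts. Of 18, 14 fell and none rose, against 15.7% of all genes called as lower, and the median was -0.56 against 0.05 for all genes (9 fell, with a median of -0.33, under equal totals, and 14 without transgenic vehicle heart 3). The 4 not called were Idh2 (0.07), Sdhc (-0.09), Got1 (-0.13) and Ogdhl (-0.16). Idh1, a cytosolic isocitrate dehydrogenase that makes 2-oxoglutarate, had 15.2 and 15 FPKM in JIB-04 hearts, 17.6, 13.5 and 14.2 FPKM in transgenic vehicle hearts, and 32.9, 33, 33.7 and 33 FPKM in wild type hearts. No transgenic heart came near the wild type range (difference -1.08, limma adjusted p = 7.9e-05). Idh3b, a subunit of mitochondrial isocitrate dehydrogenase, differed by -0.76 (limma adjusted p = 0.00011). Dlst, a subunit of the 2-oxoglutarate dehydrogenase that consumes the cofactor, and Got2, a mitochondrial transaminase, each differed by -0.74. Several of these genes are abundant in cardiomyocyte mitochondria, and 5 of 8 cardiomyocyte markers also fell (median -0.34). Under equal totals 1 of the 8 markers fell, with a median of -0.12. Over all genes 1004 were then called as lower, against 2123 in the fit as reported. The part of the marker shift in the fall of the 2-oxoglutarate genes was not tested.

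Enzymes opposite to the 10 genes, and the flavin-dependent demethylases beside them, gave a single call in transgenic vehicle hearts against wild type hearts. In that comparison 36% of all genes were called in either direction. As higher, 2739 of all genes were called in the fit as reported and 4503 under equal totals. None of 7 H3K36 methyltransferases was called (median -0.03). Smyd2, the most abundant of them, averaged 52.8 ± 10.5 FPKM in JIB-04 hearts, 56.3 ± 13.3 FPKM in transgenic vehicle hearts and 76.3 ± 7.27 FPKM in wild type hearts (SD, n = 2, 3 and 4, as for the other means of these enzymes). Ash1l averaged 9.41 ± 1.33 FPKM in JIB-04 hearts, 9.57 ± 1.51 FPKM in transgenic vehicle hearts and 8.02 ± 0.728 FPKM in wild type hearts. None of 5 tested H3K9 methyltransferases was called (median 0.07). Ehmt2, known as G9a, averaged 22.8 ± 1.82 FPKM in JIB-04 hearts, 24.6 ± 4.49 FPKM in transgenic vehicle hearts and 19.9 ± 1.55 FPKM in wild type hearts. Its partner Ehmt1 averaged 10.1 ± 1.9 FPKM in JIB-04 hearts, 10.1 ± 0.807 FPKM in transgenic vehicle hearts and 8.92 ± 1.13 FPKM in wild type hearts. Under equal totals 3 of the 7 and 1 of the 5 were called as higher, while 1 of the 7 was called as lower with median-of-ratios scaling or without transgenic vehicle heart 3. Of 3 H4K20 methyltransferases, Suv420h2 fell (-0.38, limma adjusted p = 0.016), whereas under equal totals it was not called (-0.18) and Suv420h1 was called as higher (0.34, limma adjusted p = 0.04). Neither of the 2 flavin-dependent demethylases was called, and 1 of them was called as higher under equal totals. Kdm1a, which acts on H3K4, averaged 14.4 ± 0.887 FPKM in JIB-04 hearts, 15.1 ± 1.49 FPKM in transgenic vehicle hearts and 12.8 ± 0.255 FPKM in wild type hearts. Kdm1b averaged 5.02 ± 0.292 FPKM in JIB-04 hearts, 4.82 ± 0.194 FPKM in transgenic vehicle hearts and 4.95 ± 0.547 FPKM in wild type hearts.

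Partner genes were compared between transgenic vehicle hearts and wild type hearts, where 20.3% of all genes were called as higher and 15.7% as lower. Equal totals gave 4503 higher and 1004 lower calls over all genes, against 2739 and 2123 in the fit as reported. Of 11 KDM2B partners, Rnf2, the ubiquitin ligase of Polycomb complex PRC1, rose (0.46, limma adjusted p = 0.03), as did Cul1, the scaffold of SCF ubiquitin ligases (0.31, limma adjusted p = 0.034). The Cul1 call was lost under median-of-ratios scaling (limma adjusted p = 0.066) and without transgenic vehicle heart 3 (0.067), while under equal totals 5 of the 11 were called as higher, Pcgf1, Usp7 and Fbxw7 beside these 2. Of 3 tested partners of PHF2 and JMJD1C, Arid5b, the DNA-binding partner of PHF2, had 5.03 and 6.38 FPKM in JIB-04 hearts, 3.93, 4.01 and 4.81 FPKM in transgenic vehicle hearts, and 1.88, 2.5, 3.13 and 3.37 FPKM in wild type hearts. The 3 groups did not overlap, and the difference was 0.86 for JIB-04 against wild type (limma adjusted p = 0.0016) and 0.46 for transgenic vehicle against wild type (limma adjusted p = 0.013). Over all genes, 12.4% did not overlap between JIB-04 and transgenic vehicle hearts. JIB-04 hearts lay above all wild type hearts for 28.4% of genes and transgenic vehicle hearts for 23.4%. The share with all 3 groups apart was not counted. JIB-04 against transgenic vehicle was not called for Arid5b (0.4, limma adjusted p = 0.99). Of 9 JMJD6 substrates and partners, Luc7l, a splicing protein, rose by 0.32 (limma adjusted p = 0.04), which missed the threshold under median-of-ratios scaling (0.055) and without transgenic vehicle heart 3 (0.077). In both of these settings Luc7l3, another of the 9, was called as lower (-0.27 each, limma adjusted p = 0.03 and 0.028). Under equal totals 3 of the 9, Luc7l, Cdk9 and Hexim1, were called as higher. Among 8 tested CXXC proteins, Dnmt1, the maintenance DNA methyltransferase, fell (-0.43, limma adjusted p = 0.025; -0.25 and not called under equal totals, where Kmt2a was called as higher at 0.32).

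The remaining JmjC genes and a hypoxia list complete the set. In transgenic vehicle hearts against wild type hearts, 20.3% of all genes were called as higher and 15.7% as lower. With equal totals 4503 genes were called as higher and 1004 as lower, against 2739 and 2123 in the fit as reported. The list of other JmjC genes holds Pla2g4b, a locus that overlaps Jmjd7, in place of Jmjd7 itself. Of its 16 tested genes, none rose and 2 fell in transgenic vehicle hearts, with a median of -0.04 (4 rose and 1, Pla2g4b, fell under equal totals, and 3 rose and 2 fell without transgenic vehicle heart 3). Jarid2, a JmjC protein of Polycomb complex PRC2 without demethylase activity, fell by 0.55 on the log2 scale (limma adjusted p = 0.0037, and 0.073 under equal totals). Pla2g4b fell by 0.67 (limma adjusted p = 0.0098), at low levels of 0.465 to 1.78 FPKM over all hearts. Its values are not a measure of Jmjd7, so Jarid2 was the only JmjC gene of this list called as lower. Of 14 hypoxia-responsive genes, 5 rose and 4 fell, with a median of 0.04 (6 rose and 2 fell, with a median of 0.24, under equal totals). Car9, a carbonic anhydrase, had 5.61 and 3.62 FPKM in JIB-04 hearts, 4.32, 5.31 and 1.78 FPKM in transgenic vehicle hearts and at most 0.206 FPKM in wild type hearts (difference 2.04, limma adjusted p = 0.00088). Bnip3, a mitophagy receptor, rose by 1.2 (limma adjusted p = 0.013). Ankrd37 rose by 0.94 (limma adjusted p = 0.038), which missed the threshold without transgenic vehicle heart 3 (0.64, limma adjusted p = 0.076), and Ldha, lactate dehydrogenase A, differed by -0.94 (limma adjusted p = 0.00025). For JIB-04 against transgenic vehicle, 0 genes were called by limma in every one of these lists.

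**Figure D5:**
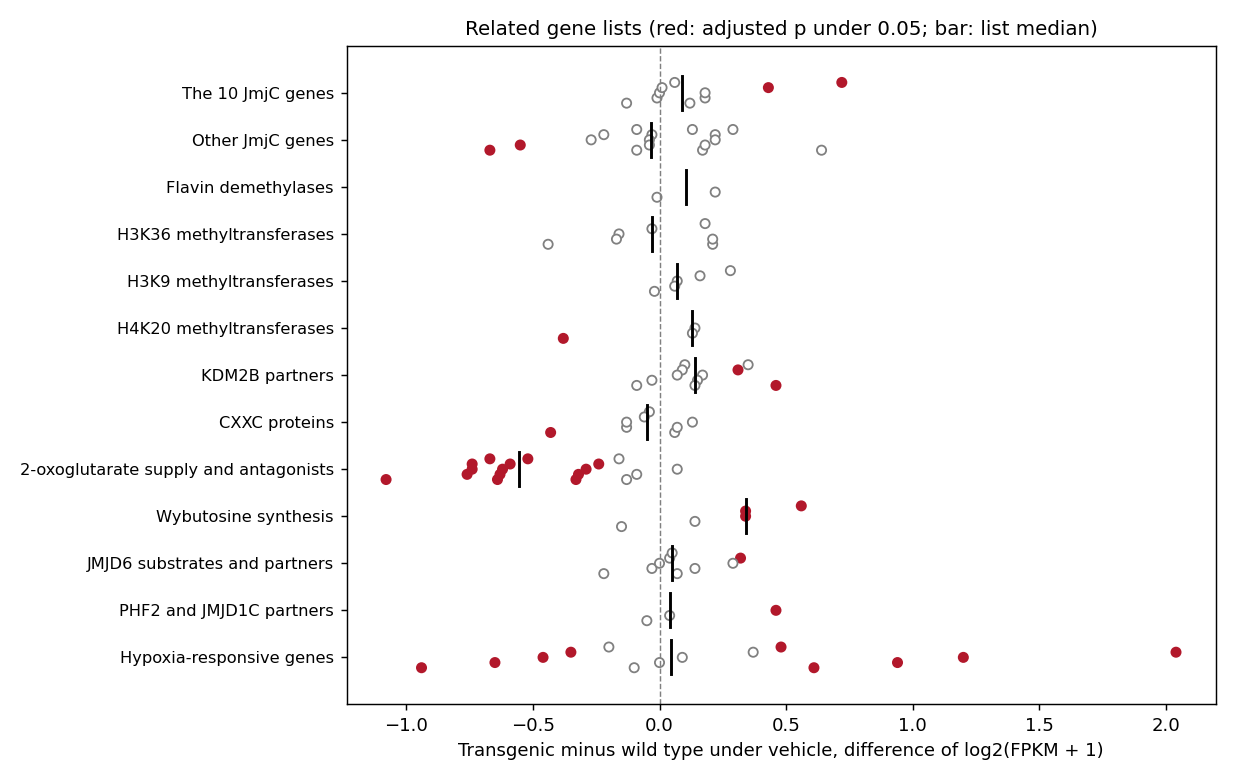
Difference of log2(FPKM + 1) between transgenic and wild type hearts under vehicle for each tested gene (circles) of the 10 JmjC genes and of 12 lists of related genes, with the list median as a bar. Red circles passed an adjusted p of 0.05. The list of 2-oxoglutarate genes has its median at -0.56 and the wybutosine list at 0.34, while the other medians lie between -0.05 and 0.14.

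The profiles of the 10 genes over the 9 hearts were compared by the root mean square difference of their mean-centred log2(FPKM + 1) values. The closest pair was Kdm3b and Jmjd1c (0.0852). The genes nearest to Kdm3a were Ttc1 (0.0596) and P4hb (0.0604), against a spread of 0.267 of Kdm3a itself around its own mean, and those nearest to Tyw5 were 2700097O09Rik (0.12) and Rab40b (0.125), against a spread of 0.405.

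Upstream sequences are shown for Kdm3a, 1 of the 2 called genes, and for Phf8, which did not differ, because calcineurin acts on NFAT, a factor that binds the core GGAAA. RefSeq start sites on GRCm38.p6 were matched for 8 of the 10 genes. GGAAA, searched on both strands as GGAAA or TTTCC, was present in the 250 bases before the start in 5 of the 8 genes and in 55.6% of all 32851 such windows. ACGTG, the core bound by hypoxia-inducible factors, searched as ACGTG or CACGT, was present in 3 of the 8 (Phf8, Mina and Jmjd6) and in 16.6% of all windows. ACGTG contains a CG pair, and the 8 windows held 11 to 50 CG pairs, against a median of 6 over all windows. The 16.6% is therefore not a matched background, and the part of CG content in the count was not tested. The Tyw5 window held GGAAA at 2 places. The Tyw5, Jmjd6 and Phf2 windows lie wholly within annotated exons, the Kdm2b window for 207 of its 250 bases and the Kdm3a window for 73, so Tyw5 is not printed and Kdm3a is printed for the 177 bases outside exons. Both sequences read 5′ to 3′ on the strand of the gene, with matches in capitals. The Kdm3a stretch (chr6:71632991-71633167, minus strand) holds 2 matches to TTTCC and none to ACGTG. The Phf8 stretch (chrX:151520422-151520671, plus strand) holds 1 match to each, which share no base. A match describes the letters only and is not evidence of binding.
Kdm3a: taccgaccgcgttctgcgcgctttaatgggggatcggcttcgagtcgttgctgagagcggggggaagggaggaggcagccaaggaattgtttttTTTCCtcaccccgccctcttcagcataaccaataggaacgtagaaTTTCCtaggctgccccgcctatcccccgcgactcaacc
Phf8: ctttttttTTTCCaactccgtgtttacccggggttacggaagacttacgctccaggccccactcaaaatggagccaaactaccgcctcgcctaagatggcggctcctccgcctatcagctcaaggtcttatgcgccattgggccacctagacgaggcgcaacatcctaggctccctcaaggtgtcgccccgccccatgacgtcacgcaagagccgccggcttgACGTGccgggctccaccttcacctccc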

How the data were processed

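The 9 hearts were grouped and numbered from the labels. Per the labels' protocols, the library kit selects mRNA and keeps no strand. The submitters' processing notes name Cufflinks 2.2.1, STAR 2.7.1a, GATK 4.1.2, Picard and GRCm38, without roles or annotation. The deposited files hold log2 values of FPKM, per the file headers. Their added constant is not stated, and 1 was assumed because the lowest value in each file is 0. Read totals are unknown, so no counting interval is given.

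Values were turned back to FPKM. The 13487 genes that reached 1 FPKM in 2 or more hearts, all 10 genes among them, were fitted as log2(FPKM + 1). The fit used limma 3.58.1 (R 4.3.3) with an intensity trend, group means and a day term, which left 5 residual and 3.07 prior degrees of freedom. Tests were two-sided with Benjamini-Hochberg adjustment over all genes and a threshold of 0.05. The scale understates changes of low genes. Effects within a day came from a mean for each of the 6 combinations of group and day. The fit was tested on simulated data. The 10 genes, the lists and the tests were chosen with earlier results of these data known, and no list was tested as a set.

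All 10 genes are named. Up to 3 called genes per list are named by size (ties at the printed precision together), or else the 2 most abundant, with the 2 nearest profiles of called genes and neighbours sharing exon bases or starting within 1 kb. Alternatives were pseudocount 0.1, no filter, a filter of 5 FPKM, equal totals, median of ratios, totals without mitochondrial and the 20 highest genes, no day term, the replicate number as a block, only the compared groups, only day 158, and each heart left out. Leaving out both hearts with mt-Atp6 above 0, and recounting the lists under other scalings, were added after seeing the data.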

Additional observations from a re-analysis of the deposited data

How the results depend on the processing

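Across the alternatives no called difference of the 10 genes turned round, and JIB-04 against transgenic vehicle gave 0 of the 10 genes in each of them. For transgenic vehicle against wild type the count of called members, 2, was 1 without a filter, 5 with equal totals, 1 with median of ratios, 1 with the replicate block, 1 with the compared groups only, 0 in day 158 hearts only and 1 without both hearts with mt-Atp6 above 0, an alternative chosen after seeing the data. It was 1 to 2 with 1 heart left out. For JIB-04 against wild type the count, 1, was 2 with equal totals, 0 with the replicate block, 2 with the compared groups only, 0 in day 158 hearts only and 0 to 2 with 1 heart left out.

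Over all genes, transgenic vehicle against wild type gave 4862 calls, against 2458 with the replicate block and 1217 in day 158 hearts only. JIB-04 against wild type gave 4354, against 1542 with the block, 651 in day 158 hearts only and 1720 to 5322 with 1 heart left out (2186 without JIB-04 heart 1, 1720 without heart 2). JIB-04 against transgenic vehicle gave 1 gene, against 0 with pseudocount 0.1, 6 without a filter, 0 with a filter of 5 FPKM, 0 with the block, 0 in day 158 hearts only, 0 without both hearts with mt-Atp6 above 0 and 0 to 3 with 1 heart left out. Day 158 against day 125 gave 51, against 23 without a filter, 185 with totals without mitochondrial and the 20 highest genes, 3 with the block, 20 without both hearts and 9 to 287 with 1 heart left out (9 without wild type heart 4, 287 without transgenic vehicle heart 2). The block leaves fewer degrees of freedom and day 158 fewer hearts; other causes were not tested.

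Correlations between the deviations of same-numbered hearts from their group means ranged from -0.19 to 0.43 and were not all above 0.1, so the numbers were not taken as pairs. With the replicate block Tyw5 differed by 0.84 and Kdm3a by 0.53 (limma adjusted p = 0.11) between transgenic vehicle and wild type. Phf8 was below the filter of 5 FPKM. With 2 to 4 hearts per group and unknown depth, small changes of these transcripts could not be detected.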
